A study of Mus musculus with 6 samples.

Results

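The replication-dependent histone genes were followed in RNA sequencing libraries from bone marrow of *Upf1*-cKO and control (Ctrl) mice. The sorted cells were early LPre-B cells, the early part of the proliferating large pre-B stage. Members were the genes whose current mouse symbol is *H1f1* to *H1f5* or begins with H2ac, H2bc, H3c or H4c and a digit, or whose older symbol begins with Hist1h to Hist4h. The annotation held 70 such genes, of which 62 were among the 13426 genes measured, 57 by their current symbol and 5 by the older one (*H2aw*, *H2bu2*, *H2bu1-ps*, *H2af-ps2* and *H4f16*). By class these were 5 H1, 15 H2A, 17 H2B, 12 H3 and 13 H4 genes, and 2 of them (*H2bu1-ps* and *H2af-ps2*) are annotated as transcribed pseudogenes. The linker histone gene *H1f6* also has such an older symbol but was left out, since the linker histones were limited to *H1f1* to *H1f5*. It lay between 2.92 and 3.49 normalised reads in Ctrl and between 2.30 and 4.05 in cKO-labelled libraries and was not called (log2 fold change -0.10, SE 0.22, limma adjusted p 0.735), so counts over all members below would include 1 gene that was not lower if it were added.

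Mice of both groups carried *Upf1* Flox/Flox, with loxP sites around exons 4 to 6, and were 8 to 16 weeks old. Ctrl mice were Mb1 +/+ and cKO mice were Mb1 Cre/+, in which a Cre recombinase inserted at the B lineage gene *Cd79a* (Mb1) deletes the floxed exons. Each group had 3 libraries. The Cre allele is present in the cKO group only, so effects of Cre, of the altered *Cd79a* allele and of *Upf1* loss cannot be told apart, and *Cd79a* itself was at 213 to 234 normalised reads in Ctrl and at 71.6 to 75.2 in cKO-labelled libraries. *Upf1*, counted over the whole gene, was at 203 to 260 in Ctrl and at 283 to 308 in cKO-labelled libraries. This count does not resolve the deleted exons and so checks no label.

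Replication-dependent histones package newly made DNA, with 4 core classes (H2A, H2B, H3 and H4) forming the nucleosome and H1 binding the linker DNA. Their genes lie in clusters, mostly without introns, and are transcribed mainly in S phase. Their mRNAs end in a conserved stem-loop instead of a poly(A) tail. The stem-loop binding protein SLBP directs processing, translation and stability of these mRNAs, and at the end of S phase their rapid decay involves SLBP, UPF1 and the exonuclease ERI1. Libraries were made from total RNA after ribosomal RNA depletion, so mRNAs without a poly(A) tail were sampled.

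The stem-loop is shown first because it is the feature these mRNAs share that the choice of members did not use. A stem of 6 base pairs that opens with GG, with a 4 base loop that opens with ttt, was found after the stop codon of 41 of the 62 members in GENCODE M21 transcripts (GRCm38), beginning 21 to 58 bases after the stop codon. Of the other 21, the annotated transcripts of 13 have at most 2 bases after the coding frame, so they do not reach the stretch where it lies. Those of *H3c13* and *H1f1* have 37 and 48 bases there, and those of 5 members have 95 or more. In the pseudogene *H2af-ps2* no coding frame was found, and the whole transcript was searched. These 8 held no match. Capitals mark the stem and the 4 letters between them the loop.
*H1f2* (chr13:23739507-23739532, plus strand): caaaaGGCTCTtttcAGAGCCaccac
*H2aw* (chr11:58955167-58955192, plus strand): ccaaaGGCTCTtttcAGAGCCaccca
*H2ac20* (chr3:96220413-96220438, minus strand): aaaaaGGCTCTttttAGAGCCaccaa
*H2bu2* (chr11:58949344-58949369, plus strand): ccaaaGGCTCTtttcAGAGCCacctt
*H3c6* (chr13:23561898-23561923, minus strand): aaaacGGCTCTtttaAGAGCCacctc
*H3c14* (chr3:96247322-96247347, plus strand): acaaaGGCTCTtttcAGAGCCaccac
*H4c14* (chr3:96262934-96262959, minus strand): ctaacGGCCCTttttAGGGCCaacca
*H4c3* (chr13:23698084-23698109, minus strand): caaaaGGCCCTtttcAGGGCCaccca
*H4c2* (chr13:23757361-23757386, plus strand): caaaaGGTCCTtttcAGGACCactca
*H4c18* (chr13:21831793-21831818, minus strand): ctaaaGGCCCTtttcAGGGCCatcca
The stem separated the H4 genes from the other classes. All 30 stem-loops found in H1, H2A, H2B and H3 genes had GGCTCT on the 5′ side of the stem, whereas the 11 found in H4 genes had GGCCCT (9 genes) or GGTCCT (2 genes, *H4c2* and *H4c11*). The loop was tttc in most genes, ttta in 3 H3 and 2 H2B genes and tttt in 2 H4 genes and 1 H2A gene.

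Promoters of 3 members, one from each of 3 motif types, are shown because the motifs there differ in frequency between classes. Windows cover 250 bases before to 50 after the RefSeq start (GRCm38.p6, written in the direction of the gene). Capitals mark matches on either strand to the TATA box (letters TATAAA), the octamer bound by OCT1 (ATTTGCAT), the H4 element, the CCAAT box, searched by the letters of its name, and the H1 box, whose letters are AAACACA.
*H2bc8* (chr13:23571150-23571449, plus strand, octamer): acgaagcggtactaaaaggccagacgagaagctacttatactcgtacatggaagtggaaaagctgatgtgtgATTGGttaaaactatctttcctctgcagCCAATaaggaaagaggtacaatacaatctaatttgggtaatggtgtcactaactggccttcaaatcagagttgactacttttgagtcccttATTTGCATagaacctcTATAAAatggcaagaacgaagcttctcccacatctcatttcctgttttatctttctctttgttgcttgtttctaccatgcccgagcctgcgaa
*H4c8* (chr13:23530794-23531093, plus strand, H4 element): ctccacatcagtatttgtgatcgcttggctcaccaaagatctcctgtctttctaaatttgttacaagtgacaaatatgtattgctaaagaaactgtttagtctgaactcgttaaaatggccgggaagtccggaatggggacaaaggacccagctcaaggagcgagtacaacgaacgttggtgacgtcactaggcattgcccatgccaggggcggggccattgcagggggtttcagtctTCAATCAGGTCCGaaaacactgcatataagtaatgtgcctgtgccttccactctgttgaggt
*H1f5* (chr13:21780576-21780875, minus strand, H1 box): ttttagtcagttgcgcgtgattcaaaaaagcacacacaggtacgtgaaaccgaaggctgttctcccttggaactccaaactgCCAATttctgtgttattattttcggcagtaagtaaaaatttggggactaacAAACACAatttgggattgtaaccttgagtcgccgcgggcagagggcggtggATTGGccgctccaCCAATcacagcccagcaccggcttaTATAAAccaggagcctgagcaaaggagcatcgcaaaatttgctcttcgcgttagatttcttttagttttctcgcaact
Of 55 measured members with a promoter in the table, 60.0% held the TATA box and 83.6% the CCAAT box, beside 15.7% and 41.1% of all 27025 promoters. The CCAAT box was in every H1, H2A, H2B and H3 promoter of the table and in 3 of 12 H4 promoters (25.0%). The octamer was in 6 of 14 H2A and 6 of 14 H2B promoters and in none of the H1, H3 or H4 promoters (1.97% of all promoters), the H1 box in 4 of 5 H1, 1 of 14 H2A and 1 of 14 H2B promoters (8.22% of all) and the H4 element in 2 of 12 H4 promoters, those of *H4c8* and *H4f16* (3 promoters of all 27025).

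All 62 measured members were lower in cKO-labelled than in Ctrl libraries with limma at an adjusted p below 0.05, and none was higher. This count leaves out *H1f6*, which was not called. Of all genes measured, 25.0% were called lower and 27.7% higher. The median log2 fold change of the members was -1.19 (quartiles -1.38 and -0.98), beside 0.01 over all genes. On the log2(value + 1) scale 45 members were called and at least 2-fold lower, as were 3.54% of all genes, and 51 were at least 2-fold lower as a ratio of group means. In all 62 every cKO-labelled library lay below every Ctrl library, which held for 28.0% of genes.

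Summed over members, the level was 22052, 18590 and 20073 normalised reads in Ctrl libraries 1 to 3 and 10025, 10608 and 10270 in cKO-labelled libraries 1 to 3. The sum was thus 20238 ± 1737 (SD, n = 3) in Ctrl and 10301 ± 293 (SD, n = 3) under the cKO label, which is a log2 ratio of -0.97, and the groups did not overlap. As a share of reads, members took 1.67% to 2.05% of each Ctrl library and 1.06% to 1.15% of each cKO-labelled library. In sorted cells in bulk, fewer cells of a type and less RNA per cell cannot be told apart from these reads.

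Marker levels and the share of the most abundant row are given here once. The level summed over 8 neutrophil markers was 14.1 to 114 in Ctrl and 314 to 443 in cKO-labelled libraries, with *Ltf*, *S100a9*, *S100a8* and *Elane* called higher. B lineage markers summed to 1943 to 2130 in Ctrl and 1977 to 2081 in cKO-labelled libraries. Of these 7 markers 1 was called lower and 2 higher, so changes in opposite directions enter that sum. Of the plasma cell markers 2, *Jchain* and *Sdc1*, were lower. The most abundant row of each library held 16.4% to 23.8% of the reads in Ctrl and 13.8% to 16.5% in cKO-labelled libraries. The B lineage sums and the shares of that row overlapped between groups, whereas the neutrophil sums did not. The part of these values in the histone differences was not tested. The 4 erythroid, 4 macrophage and monocyte and 1 T and NK cell markers in the table gave no call, and hemoglobin genes and *Cd3e*, *Cd3d*, *Cd3g* and *Cd8a* were not in the table.

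**Figure D1:**
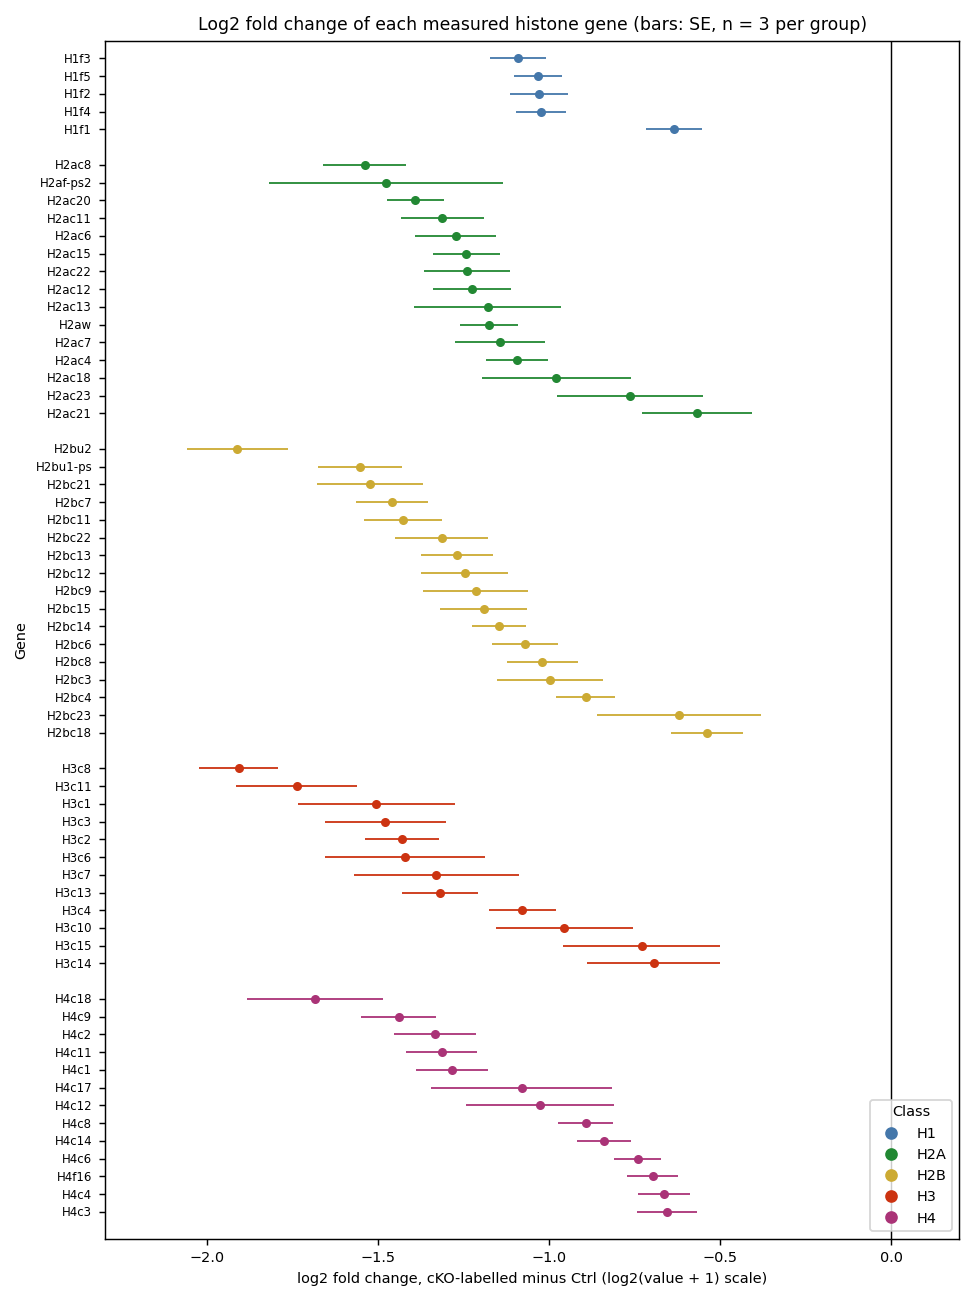
Log2 fold change (x axis, cKO-labelled minus Ctrl, on the log2(value + 1) scale) of each of the 62 measured histone genes (y axis), grouped by class, with limma's SE (n = 3 per group). Points run from -1.91 (H2bu2 and H3c8) to -0.54 (H2bc18), and none reaches 0.

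H1 linker histones had the highest median Ctrl level of the 5 classes, 1511 normalised reads, although *H2bc18* lay above *H1f3* and *H1f4*. *H1f2* was at 2343, 1883 and 1783 normalised reads in Ctrl libraries 1 to 3 and at 963, 976 and 981 in cKO-labelled libraries 1 to 3 (log2 fold change -1.03, SE 0.08, adjusted p 1.2e-08). *H1f3* fell from 1432, 1253 and 1498 to 626, 730 and 606 (log2 fold change -1.09, SE 0.08, adjusted p 4.05e-09), the largest fall in the class. *H1f4* and *H1f5* each fell by 1.03 on the log2 scale (SE 0.07 for both), from 1393 to 1606 and from 1407 to 1593 in Ctrl, to 694 to 776 and to 712 to 758 in cKO-labelled libraries.
*H1f1* stood apart within the class. It was at 1836, 1662 and 2057 in Ctrl and at 1092, 1286 and 1194 in cKO-labelled libraries (log2 fold change -0.63, SE 0.08, adjusted p 3.21e-06). In Ctrl it was the second most abundant linker histone, and in cKO-labelled libraries its mean was above that of *H1f2*. The difference between their changes was not tested. Summed over the 5 genes, H1 went from 8247 ± 611 to 4286 ± 213 (SD, n = 3 per group, 1.92-fold lower).

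H3 genes had the lowest median of the 5 classes, -1.38, and the largest fall of a class sum, from 1912, 1432 and 1191 normalised reads in Ctrl to 589, 551 and 507 in cKO-labelled libraries (2.75-fold). *H3c8* fell most, with values of 101, 76.9 and 72.9 in Ctrl and 21.6, 22.6 and 19.9 in cKO-labelled libraries (log2 fold change -1.91, SE 0.12). *H3c6*, the most abundant H3 gene, was at 408, 307 and 219 in Ctrl and at 120, 111 and 105 in cKO-labelled libraries (log2 fold change -1.42, SE 0.23, adjusted p 0.00395). Its highest Ctrl value was 1.86 times its lowest.
That spread recurred in the class. The H3 sum differed 1.61-fold between the highest and lowest Ctrl library, against 1.16-fold to 1.22-fold for the other 4 classes, and its SD was 24.3% of the mean in Ctrl and 7.45% in cKO-labelled libraries. Ctrl library 1 was the highest Ctrl library for 10 of 12 H3 genes, beside 3 of 5 H1, 8 of 15 H2A, 12 of 17 H2B and 7 of 13 H4 genes, and for 40 of all 62. In both groups the H3 sum and *H3c6* ran from high to low over libraries 1 to 3. Without Ctrl library 1, the log2 ratio of the H3 sum was -1.26, beside -1.46 with it.
The longest reading frame in the annotated transcripts divided 10 of the H3 genes by protein, each of 136 residues. For *H3c14* and *H3c15* that frame had 181 residues. They were placed in neither group, and whether they encode either protein was not checked. The 6 genes of one protein had a median log2 fold change of -1.38 and the 4 of the other -1.62, with ranges that overlapped (-1.48 to -1.08 and -1.91 to -0.96). *H3c14* and *H3c15* on chromosome 3 had the smallest H3 changes, -0.69 (SE 0.19) and -0.73 (SE 0.23), at levels of 4.94 to 5.51 and 2.33 to 3.49 in Ctrl, where the value added before the logarithm takes up part of the change. Without cKO-labelled library 2, *H3c15* was not called (log2 fold change -0.54, limma adjusted p 0.0794).

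H4 genes encode a single protein of 103 residues from 13 genes, and yet their changes ran from -1.69 to -0.66. The 3 most abundant, *H4c14*, *H4c6* and *H4c4*, were among those that fell least. *H4c14* was at 1117, 965 and 902 in Ctrl and at 582, 542 and 535 in cKO-labelled libraries (log2 fold change -0.84, SE 0.08, adjusted p 6.47e-08). *H4c3*, the smallest change of the class, was at 316, 272 and 359 in Ctrl and at 201, 196 and 199 in cKO-labelled libraries (log2 fold change -0.66, SE 0.09).
*H4c18* fell most, both on the log2(value + 1) scale and as a ratio of means (5.14-fold), from 5.36, 5.91 and 6.60 to 1.22, 1.04 and 1.22 (log2 fold change -1.69, SE 0.20, adjusted p 1.16e-06), on 11 or more reads per library. Only 14.4% of the 50-base windows of its transcript are found at no other annotated locus, so its reads could be split between copies. *H4f16*, the one member on chromosome 6, was at 208, 204 and 225 in Ctrl and at 129, 135 and 128 in cKO-labelled libraries (log2 fold change -0.70, SE 0.08). As a class H4 went from 5019 ± 455 to 2753 ± 27.3 (SD, n = 3 per group, 1.82-fold lower). By stem-loop, the 7 H4 genes with GGCCCT and the loop tttc had a median of -0.74, the 2 with GGCCCT and tttt (*H4c14* and *H4c9*) one of -1.14 and the 2 with GGTCCT one of -1.32. These groups are small and the difference was not tested.

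H2A genes fell 2.38-fold as a sum, from 2398, 2005 and 2126 to 881, 908 and 959. *H2aw* on chromosome 11, the most abundant, was at 830, 698 and 684 in Ctrl and at 315, 305 and 356 in cKO-labelled libraries (log2 fold change -1.18, SE 0.08, adjusted p 1.9e-09). *H2ac8* had the largest change on the log2(value + 1) scale, from 77.2, 54.0 and 56.8 to 20.5, 21.1 and 20.3 (log2 fold change -1.54, SE 0.12). *H2ac21* had the smallest, from 18.0, 13.6 and 20.6 to 9.71, 12.1 and 12.1 (log2 fold change -0.57, SE 0.16, adjusted p 0.00608), and the highest cKO-labelled value lay just below the lowest Ctrl value. Scaled to total reads, *H2ac21* was not called (log2 fold change -0.38, adjusted p 0.0724).
H2B genes as a class fell 1.83-fold, from 3405, 2909 and 3538 to 1746, 1876 and 1771, of which *H2bc18* was the largest part. This gene held 1372, 1312 and 1817 of these normalised reads in Ctrl and 983, 1096 and 990 in cKO-labelled libraries, and its change was the smallest of all members (log2 fold change -0.54, SE 0.11, adjusted p 0.000812). Without it, a sum chosen after its values were seen, the other 16 H2B genes fell 2.30-fold. At the other end *H2bu2* on chromosome 11 went from 48.6, 31.9 and 35.1 to 8.54, 9.60 and 9.91 (log2 fold change -1.91, SE 0.15, adjusted p 5.28e-09), the largest fall of any member and the 84th lowest of the 13426 genes on the log2(value + 1) scale. As a ratio of means it fell 4.12-fold, less than *H4c18*, which also fell more with a pseudocount of 0.1, edgeR and DESeq2. *H2bc23*, the least abundant member, had a mean of 1.84 in Ctrl and was called with an adjusted p of 0.0365 on as few as 5 reads (log2 fold change -0.62, SE 0.24). It was not called when scaled to total reads (log2 fold change -0.53, adjusted p 0.0845) or with DESeq2 (log2 fold change -1.22, adjusted p 0.0765). Nor was it called without any one of Ctrl libraries 2 and 3 and cKO-labelled libraries 1 and 2 (log2 fold change -0.68 to -0.41, adjusted p 0.0516 to 0.199). It was the one member that did not exceed 0.5 in all 3 cKO-labelled libraries, so its place in the table rested on Ctrl libraries.

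**Figure D2:**
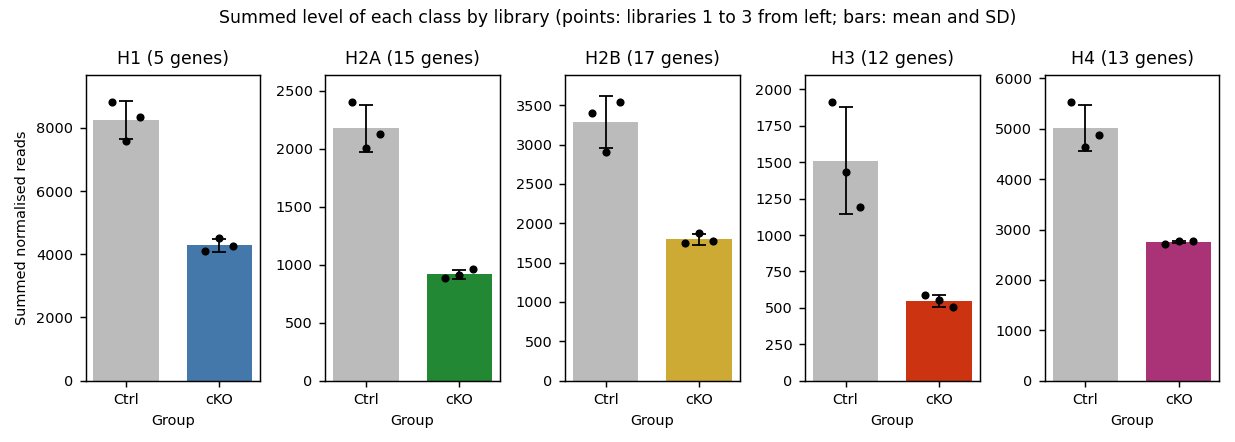
Summed normalised reads (y axis, from 0 in each panel) of the H1, H2A, H2B, H3 and H4 genes in Ctrl and cKO-labelled libraries. Bars are means with SD (n = 3), and points are libraries 1 to 3 from left to right. In each class the cKO-labelled points lie below the Ctrl points, and the H3 Ctrl points spread from 1191 to 1912.

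Many H2A and H2B genes are transcribed from a shared promoter in opposite directions. In 10 such pairs both genes were measured, with starts at most 500 bases apart. In 7 of the 10 the log2 fold changes of the partners were within 0.2 of each other, and the median gap was 0.12. How many H2A and H2B genes that are not partners lie as close was not counted. Changes of all members lay close together (quartiles -1.38 and -0.98), so this count does not show that partners change together more than other members. Of the 2 pairs with the highest Ctrl sum, *H2ac15* and *H2bc15* (starts 164 bases apart) fell by 1.24 (SE 0.10) and 1.19 (SE 0.13) on the log2 scale. *H2ac20* and *H2bc21*, on chromosome 3 (192 bases apart), fell by 1.39 (SE 0.08) and 1.52 (SE 0.15). *H2ac20* was at 416, 364 and 402 in Ctrl and at 144, 138 and 168 in cKO-labelled libraries, and *H2bc21* at 26.4, 19.7 and 25.2 and at 6.88, 6.99 and 8.89, so similar changes came at a level that differed by an order of magnitude in reads. The widest gap, 0.52, was between *H2ac8* (-1.54) and *H2bc8* (-1.02), whose promoter is printed above. That pair was named after its values were seen.

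By genome position the members fall on 4 chromosomes. On chromosome 13 the 49 genes had a median log2 fold change of -1.21 and a sum of 16192 ± 1538 in Ctrl and 8042 ± 259 in cKO-labelled libraries (2.01-fold lower). With a gap of over 100 kb as the border, they form 3 groups and a lone pseudogene, *H2af-ps2*, at chr13:51200084-51203066. The 16 genes at chr13:21715711-21832197 fell 2.21-fold as a sum, the 5 at chr13:22035122-22043658 fell 2.56-fold and the 27 at chr13:23531044-23764412 fell 1.95-fold. Medians were -1.19, -1.31 and -1.10. In each group the cKO-labelled libraries lay below the Ctrl libraries.
On chromosome 3 the 9 genes at chr3:96219885-96270192 had the smallest sum change of the 3 clusters, 1.70-fold, from 3055, 2762 and 3258 to 1766, 1837 and 1747, and a median of -0.84. Its members spread from -1.52 to -0.54. On the log2(value + 1) scale *H2bc21* (-1.52), *H2ac20* (-1.39) and *H3c13* (-1.32, SE 0.11) fell at least 2-fold. *H2ac18* (-0.98, SE 0.22), *H4c14* (-0.84), *H3c15* (-0.73), *H3c14* (-0.69), *H2ac21* (-0.57) and *H2bc18* (-0.54) fell less on that scale. Of these, *H2ac18*, *H3c14* and *H3c15* were under 6 normalised reads in every Ctrl library, and as ratios of means they fell 2.68-fold, 1.82-fold and 2.08-fold. The 2 H2B genes there, mostly *H2bc18*, fell 1.48-fold as a sum, whereas the 3 H2A genes of the cluster fell 2.55-fold and the 3 H3 genes 2.46-fold.
On chromosome 11 the 3 genes at chr11:58948911-58955192 all fell more than 2-fold. Beside *H2aw* and *H2bu2*, the pseudogene *H2bu1-ps* went from 34.2, 33.6 and 31.3 to 11.3, 9.96 and 10.6 (log2 fold change -1.55, SE 0.12, adjusted p 6.73e-09). *H2aw* overlaps *Trim17* and *H2bu2* overlaps *Gm51864* in RefSeq, and counting ignored strand, so reads of these neighbours cannot be told apart from theirs.

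The balance of the classes shifted by a few percentage points. H2A made up 10.9%, 10.8% and 10.6% of the summed histone level in Ctrl libraries 1 to 3 and 8.79%, 8.56% and 9.34% in cKO-labelled libraries. H4 made up 24.3% to 25.1% in Ctrl and 26.0% to 27.1% in cKO-labelled libraries. For both classes the groups did not overlap. H3 made up 8.67%, 7.71% and 5.93% in Ctrl and 5.87%, 5.19% and 4.94% in cKO-labelled libraries, so that Ctrl library 3 was next to the highest cKO-labelled library.
H1 shares (40.0% to 41.5% in Ctrl and 40.8% to 42.5% in cKO-labelled libraries) and H2B shares (15.4% to 17.6% and 17.2% to 17.7%) overlapped. Per kb of RefSeq gene length, over the 58 members whose gene spans at most 3000 bases, the order of the classes in Ctrl was H4 (34.3% ± 0.60), H1 (29.9% ± 0.58), H2B (16.8% ± 1.39), H2A (11.9% ± 0.12) and H3 (7.03% ± 1.21, SD, n = 3). On that scale H2A was at 9.78% ± 0.44 and H4 at 36.9% ± 0.72 in cKO-labelled libraries. Shares within a library do not depend on how libraries were scaled to each other. With 3 libraries against 3, no exact permutation test of a share could give a two-sided p below 0.10, and none was run.

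**Figure D3:**
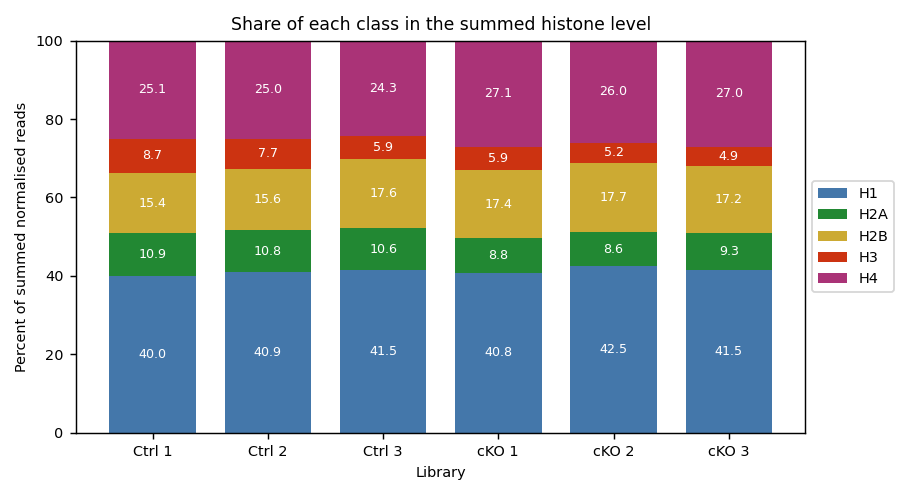
Percent of the summed normalised reads of the 62 measured histone genes (y axis) held by each class in each library (x axis). H2A is at 10.6% or more in Ctrl and at 9.34% or less in cKO-labelled libraries, and H4 is at 25.1% or less in Ctrl and at 26.0% or more in cKO-labelled libraries.

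Abundant members tended to fall less. The 6 members with a Ctrl mean of at least 1000 normalised reads had a median log2 fold change of -1.03, the 29 between 100 and 1000 one of -1.18 and the 18 between 10 and 100 one of -1.32. Among the 53 members with a Ctrl mean of at least 10, Spearman's rho between Ctrl mean and log2 fold change was 0.50 across genes, which share libraries and are not independent, and the Ctrl mean enters both quantities. Over all 62 members rho was 0.20, since the 9 below 10 normalised reads had a median of -0.96 on a scale that understates change at low levels. As a ratio of sums, those 9 fell 2.70-fold, the 18 between 10 and 100 fell 2.72-fold and the 6 most abundant fell 1.84-fold.

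**Figure D4:**
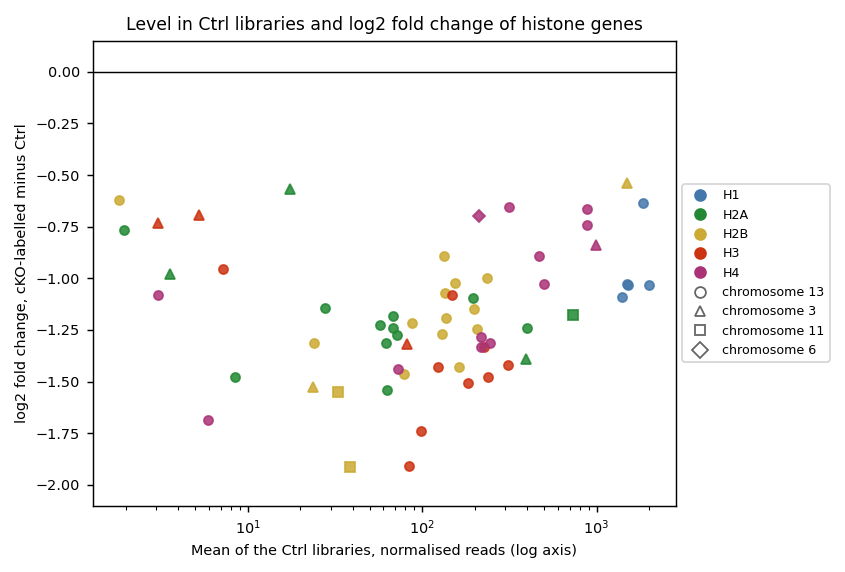
Mean of the Ctrl libraries (x axis, normalised reads, log axis) and log2 fold change, cKO-labelled minus Ctrl (y axis), of the 62 measured histone genes, coloured by class and shaped by chromosome. Genes above 1000 normalised reads lie between -1.09 and -0.54, and genes between 10 and 100 reach -1.91.

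Members were also divided by sequence features, and medians are given with no test. Among stem-loop sequences held by at least 2 genes, medians ran from -1.33 (GGCTCT with the loop ttta, 5 genes) to -0.74 (GGCCCT with tttc, the 7 H4 genes above), and the most frequent, GGCTCT with tttc, had -1.15 (24 genes). Members with a stem-loop in their transcript had a median of -1.15 (41 genes) and those without one -1.23 (21 genes). Transcripts annotated to end within 100 bases after the stem-loop had a median of -1.28 (20 genes) and those annotated beyond that point one of -1.08 (21 genes). H2A and H2B genes with an octamer in the promoter had a median of -1.16 (12 genes) and those without one -1.23 (16 genes). For 27 members fewer than 50% of the 50-base windows of their transcript are found at no other annotated locus, so their reads could be split between copies. Their median was -1.24, beside -1.08 for the other 35.

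**Figure D5:**
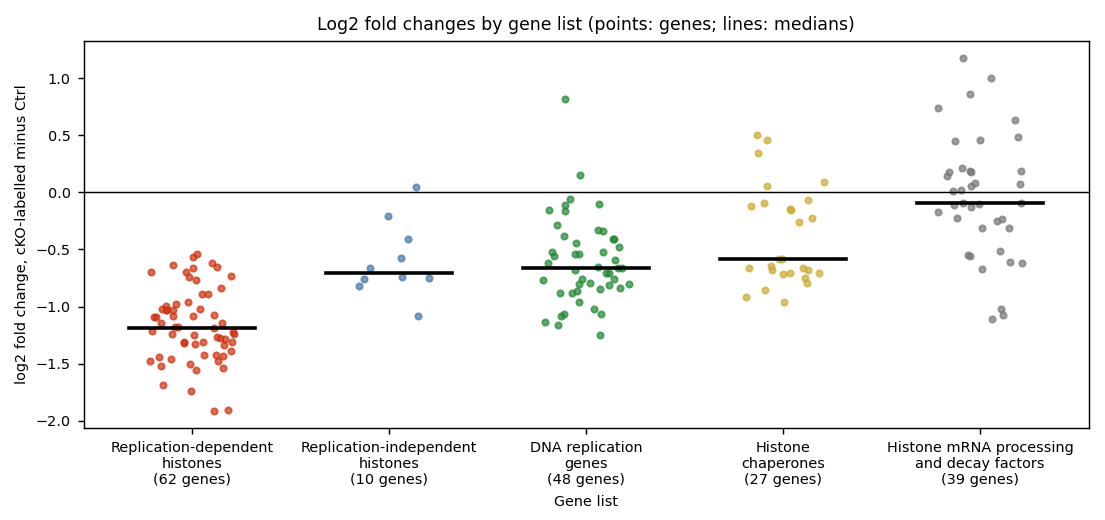
Log2 fold changes (y axis, cKO-labelled minus Ctrl) of genes in 5 lists (x axis), with a point per gene and a line at each median. Medians are -1.19 for the replication-dependent histones, -0.70 for the replication-independent ones, -0.66 for DNA replication genes, -0.59 for histone chaperones and -0.09 for histone mRNA processing and decay factors.

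Histones listed here as replication-independent, which are made outside S phase or replace the core histones at particular places, fell less. Of 10 measured, 8 were lower and none higher, with a median of -0.70. *H2ax*, whose product marks DNA breaks when phosphorylated, fell most, from 608, 518 and 546 to 255, 263 and 268 (log2 fold change -1.08, SE 0.07). Its change lay within the range of the members (-1.91 to -0.54), and its value of 608 was the highest of the list. Whether its mRNA ends in a stem-loop was not examined. *H3f3b*, *H2az2* and *H3f3a* followed at -0.82, -0.76 and -0.75 (SE 0.21, 0.10 and 0.10). Values of the 2 genes not called, named after they were seen, were 0.04 (SE 0.07) for *Macroh2a1* and -0.41 (SE 0.20, adjusted p 0.103) for *H1f10* on the log2 scale. The sum of replication-dependent over replication-independent histones, with *H2ax* counted among the latter, was 9.75 to 10.4 in Ctrl and 7.12 to 7.57 in cKO-labelled libraries.

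Genes of DNA replication were lower in 41 of 48 cases and higher in 1, with a median of -0.66. *E2f1*, a transcription factor of S phase entry, had a log2 fold change of -1.25 (SE 0.10), the clamp loader subunit gene *Rfc3* one of -1.16 (SE 0.12), the helicase subunit gene *Mcm4* one of -1.14 (SE 0.07) and the licensing factor gene *Cdt1* one of -1.08 (SE 0.09). Their summed level was 10873 to 11269 in Ctrl and 7003 to 7115 in cKO-labelled libraries (log2 ratio -0.65, against -0.97 for the histones). Set over that sum, the histone level was 1.98, 1.65 and 1.85 in Ctrl libraries 1 to 3 and 1.43, 1.50 and 1.44 in cKO-labelled libraries, and the groups did not overlap. Histone chaperones, which carry histones to DNA, were lower in 17 of 27 cases and higher in 3, with a median of -0.59. Among them *Mcm2* (also in the replication list), *Npm3*, *Dnajc9* and *Hat1* had log2 fold changes of -0.96, -0.92, -0.85 and -0.79 (SE 0.08, 0.10, 0.07 and 0.09).

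Of 39 factors that make or degrade histone mRNA, 13 were lower and 8 higher, with a median of -0.09. As shares (33.3% and 20.5%) these are near the 25.0% and 27.7% of all genes. *Slbp*, which encodes the stem-loop binding protein, was at 163, 167 and 189 in Ctrl and at 73.8, 88.9 and 81.6 in cKO-labelled libraries (log2 fold change -1.08, SE 0.09, adjusted p 1.05e-08). *Npat*, which encodes the coactivator of histone gene transcription, fell from 86.5, 74.6 and 85.6 to 68.8, 64.4 and 64.3 (log2 fold change -0.31, SE 0.09, adjusted p 0.00581). For *Eri1*, the exonuclease that trims the stem-loop, the log2 fold change was -0.09 (SE 0.08, adjusted p 0.317). *Lsm10* and *Lsm11*, of the U7 particle that cleaves the histone mRNA end, had 0.18 (SE 0.22) and 0.07 (SE 0.12), and *Casp8ap2*, a histone locus body gene, had -0.13 (SE 0.08). None of these 4 was called. The 4 factors with the largest rises, named after their values were seen, were *Ctif* (log2 fold change 1.17, SE 0.21), *Ddx19b* (41.3 to 43.6 normalised reads in Ctrl and 83.2 to 88.0 in cKO-labelled libraries), *Srrt* (0.86, SE 0.08), which encodes a partner of the nuclear cap-binding complex, and *Smg1* (0.73, SE 0.07), which encodes the kinase that phosphorylates UPF1. The lists share all 6 libraries with the members, and the differences between lists were not tested.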

How the data were processed

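RNA from sorted early LPre-B cells (Lineage-, B220+, sIgM-, CD43+, large by forward scatter and CD2-, among other gates) was depleted of ribosomal RNA and sequenced from a single end in 3 Ctrl and 3 cKO libraries. Per the labels and the study's methods, the authors trimmed reads with cutadapt 4.0, aligned them to mm10 with HISAT2 without use of strand although the kit keeps it, counted them per gene with featureCounts 2.0.1 and used limma 3.48.0. How reads with several matches were counted is not given in the sources used here. Groups and replicate numbers came from the labels, which do not say whether replicates were single mice. The paper describes the 3 per group as biological replicates. The p-values rest on the spread between these libraries.

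The values the authors deposited are a linear signal for each Entrez ID and library. A value is the read count with 0.5 added, per 1e6 reads of an effective library size, and is called normalised reads. Whole reads were recovered for 100% of values (tolerance 0.02) and totalled 9732498 to 11006834 per library. Genes above 0.5 in at least 3 libraries had been kept. Symbols, positions and promoters came from RefSeq (GRCm38.p6) and transcripts from GENCODE M21.

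limma 3.58.1 in R 4.3.3 was fitted to log2(value + 1) over all 13426 genes, with trend and robust set in eBayes, no term besides group, and adjustment by Benjamini-Hochberg. Log2 fold changes and SE are from this fit, on a scale that understates changes at low levels, and genes with an adjusted p below 0.05 were called. Sums and shares over members are descriptions without a test. Alternatives were a pseudocount of 0.1, a minimum mean log2 value of 1, scaling to total reads, centring on the median, edgeR 4.0.16 and DESeq2 1.42.0 on recovered reads, a replicate block and leaving out each library.

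Members and gene lists were chosen with earlier results of these data known. Named members are, per class, the most abundant in Ctrl and those with the largest and smallest change, every H1 gene, every gene outside chromosome 13 and the 2 most abundant divergent pairs. *Upf1* and, of the factor list, *Slbp*, *Npat*, *Eri1*, *Lsm10*, *Lsm11* and *Casp8ap2* are named, and of each other list at most 4 called genes by size of change. Any further gene was named after its values were seen.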

Additional observations from a re-analysis of the deposited data

How the results depend on the processing

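Under every alternative run, the number of members called lower with an adjusted p below 0.05 was 60 to 62 of 62 and no member was called higher. The exceptions were *H2bc23* and *H2ac21* when scaled to total reads (60 called), *H2bc23* with DESeq2 (61 called) and, on leaving out a library, *H2bc23* or *H3c15* (60 to 62 called). The replicate block left 62 called and gave 3321 lower and 3668 higher over all genes. Over all genes, same-numbered Ctrl and cKO libraries deviated with correlations of 0.08, -0.03 and -0.02. Not every library correlated best with its own number, so the numbers were not taken as pairs. These correlations cannot tell whether the H3 genes alone follow the replicate numbers, and their sum ran in the same library order in both groups. Library numbers in the headers do run consecutively within a replicate number, and for *H3c6* the block moved the adjusted p from 0.00395 to 6.0e-08. Of 325 values of 25 named members under alternatives, 323 kept their side of the threshold and none changed sign. For genes at low levels the count models gave larger falls, such as -2.40 with edgeR for *H4c18* (-1.69 as reported) and -1.46 for *H2ac18* (-0.98). With total reads the median of all genes moved to 0.19 and that of the members to -0.99, and calls over all genes went from 3351 lower and 3725 higher to 1936 and 5169, while centring on the median gave 4355 and 2992. The gap between the members' median and that of all genes was -1.20 as reported, -1.18 with total reads and -1.20 with centring. Log2 ratios of sums with total reads and with centring were -0.77 and -1.08 for all members, -0.74 and -1.05 for H1, -1.05 and -1.36 for H2A, -0.66 and -0.98 for H4, -0.81 and -1.12 for chromosome 13 and -0.56 and -0.87 for chromosome 3, and with total reads -0.67 for H2B and -1.02 for chromosome 11. Without *H2bc18*, an alternative chosen after seeing the data, H2B was at -1.20. Leaving out each library gave a median log2 fold change of -1.27 to -1.10 and log2 ratios of sums of -1.03 to -0.91 for all members, -1.0 to -0.89 for H1, -1.30 to -1.17 for H2A, -0.95 to -0.81 for H2B, -1.61 to -1.26 for H3, -0.92 to -0.79 for H4, -1.07 to -0.93, -0.82 to -0.71 and -1.30 to -1.13 for chromosomes 13, 3 and 11. The 3 libraries per group limit the tests of 9 members under 10 normalised reads in Ctrl, and reads of near-identical copies cannot be assigned with certainty.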
